A study of Mus musculus with 8 samples.

Results

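The genes described here encode the machinery that makes ribosomes in the nucleolus: subunits and regulators of RNA polymerase I (Pol I), nucleolar chaperones, the protein cores of the small nucleolar ribonucleoproteins (snoRNPs) that modify ribosomal RNA, and assembly factors of the small and large ribosomal subunits. They were a written list of 46 mouse genes. Of these, 45 had at least 1 probe set annotated to that gene alone, with 94 probe sets between them out of 45101 on the array, among 18194 named genes. All 45 passed the filter on dim probe sets. The gene Npm3 had no such probe set and was not analysed here. Each gene was summarised by its probe set with the highest mean intensity, and its other probe sets are described after the comparisons.

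Pol I transcribes the ribosomal DNA repeats into a long precursor, which box C/D snoRNPs methylate, box H/ACA snoRNPs convert at chosen uridines to pseudouridine, and assembly factors fold, cut and load with ribosomal proteins. Resting lymphocytes have small nucleoli, and a T cell that enters the cell cycle enlarges its nucleolus and makes more ribosomes. Many genes of this machinery are known targets of the transcription factor Myc.

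RNA from spleen CD8+ T cells was measured on Affymetrix arrays in 4 groups of 2 arrays each, from wild-type C57BL/6 mice and from Elf4-/- mice, which lack the ETS-family transcription factor gene Elf4 in the whole animal. Naive cells were left untreated, and activated cells were cultured for 3.5 days on plates coated with anti-CD3, with anti-CD28, in RPMI with 10% FBS and 5% T-stim. The labels give no age or sex. They also leave unsaid whether the replicates of a group were separate animals or cultures, and p-values therefore speak only to the spread seen among these arrays, part or all of which may be technical. Values are the deposited intensities on a linear scale, given for replicate 1 and then replicate 2. Changes are on the log2(intensity + 16) scale with a standard error (SE) from a limma fit to all 8 arrays, and a call is an adjusted p under 0.05.

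Several measures separated the activated from the naive arrays and so cannot be told apart from activation. The Actb 3′ probe set outshone the 5′ one by 1.96 to 2.50 times on the 4 naive arrays. On the 4 activated arrays it did so by 5.90 to 11.1 times. For Gapdh the same ratios ran from 3.38 to 4.42 and from 4.83 to 7.56. Such ratios can reflect shortened RNA, which was not tested. Xist, which is transcribed from the inactive X chromosome of female cells, had intensities from 60.3 to 172 in naive cells and from 7703 to 10011 in activated cells, while the Y-linked gene Eif2s3y ran from 2537 to 5146 and from 14.2 to 43.95. By these 2 transcripts the naive arrays read as male cells and the activated arrays as female cells, in both genotypes. Dkc1 is the one X-linked member. A bacterial spike-in control, Lys, ranged from 49.6 to 73.0 in the naive set and from 52457 to 59027 in the activated set. The summed intensity of 7 CD8+ T cell markers lay between 70031 and 85504 in naive cells and between 17324 and 22878 in activated cells, with 6 of the 6 tested markers lower in activated cells of both genotypes. Markers of other cells differed between the states too. The 10 B cell markers summed to between 28508 and 49582 in naive and between 4865 and 7290 in activated cells, with 8 of 10 lower in each genotype. The 9 macrophage markers summed to between 2250 and 6327 and between 552 and 700.3, with 4 of 6 tested lower in wild-type and 6 of 6 in knockout cells. Of 8 granulocyte markers, 0 were called in wild-type and 7 were lower in knockout cells. Of 4 tested NK cell markers, 2 (Klra8 and Nkg7) were lower and 1 (Klrk1) higher in each genotype. On the naive arrays Nkg7 read 14780 to 15522, while Ncr1, too dim to be tested, read 7.9 to 45.1. This list was therefore not taken as a measure of NK cells alone. The part of these cells in the members' changes was not tested. The brighter Elf4 probe set was dim in every group, at 116 and 199 in wild-type naive, 83.6 and 134 in wild-type activated, 165 and 192 in knockout naive and 76.2 and 80.6 in knockout activated cells, and so does not check the genotype labels. In these bulk samples, fewer cells of a type and less RNA per cell cannot be told apart.

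In wild-type cells, 23 of the 45 genes rose on activation, 3 fell and 19 did not pass the test, with a median log2 change of 0.45. Across all 12797 genes tested, 21.3% rose and 24.1% fell (45.4% in either direction), and the median change was -0.12. The largest rises were those of Noc4l, Nolc1, Rrn3 and Wdr12, and the 3 that fell were Fbl, Imp3 and Emg1. In knockout cells, 24 rose, 3 fell and 18 did not pass, with a median of 0.62, against 21.9% higher and 26.1% lower among all genes (48% in either direction) and a median of -0.12. The 2 comparisons use different arrays, and 22 genes rose in both. Fbl and Imp3 fell in both. Nop14 rose and Emg1 fell in wild-type cells alone by the call, while Ddx10 and Polr1c rose and Ubtf fell in knockout cells alone by the call. A call in one genotype and not in the other is no test of a difference, which is given further on. No call was made in either genotype for 16 genes.

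The array values of the 2 states did not overlap for 38 of the 45 genes in wild-type cells, 29 with higher and 9 with lower activated arrays, against 32.6% higher and 39.4% lower among all genes (72% in all). In knockout cells 35 did not overlap, 28 higher and 7 lower, against 33.9% and 41.3% (75.2% in all). When single arrays were left out, 19 of the 26 wild-type calls and 21 of the 27 knockout calls held each time. Without a trend in the variance model, calls were lost for Gar1, Gnl3, Emg1, Npm1, Wdr43 and Utp18 in wild-type and for Gar1, Gnl3, Ubtf, Ddx21 and Ddx10 in knockout cells (adjusted p from 0.0553 to 0.211). Scaling left the direction of the list in place: quantile normalization gave medians of 0.45 and 0.49, and centring each array on its median gave 0.64 and 0.75, where the median over all genes moved to 0.069 and 0.0038. With the log2 Actb ratio as a covariate, the Noc4l rise in wild-type cells was the single call that remained among the members and no knockout call remained, when 2.59% and 0% of all genes were called.

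**Figure D1:**
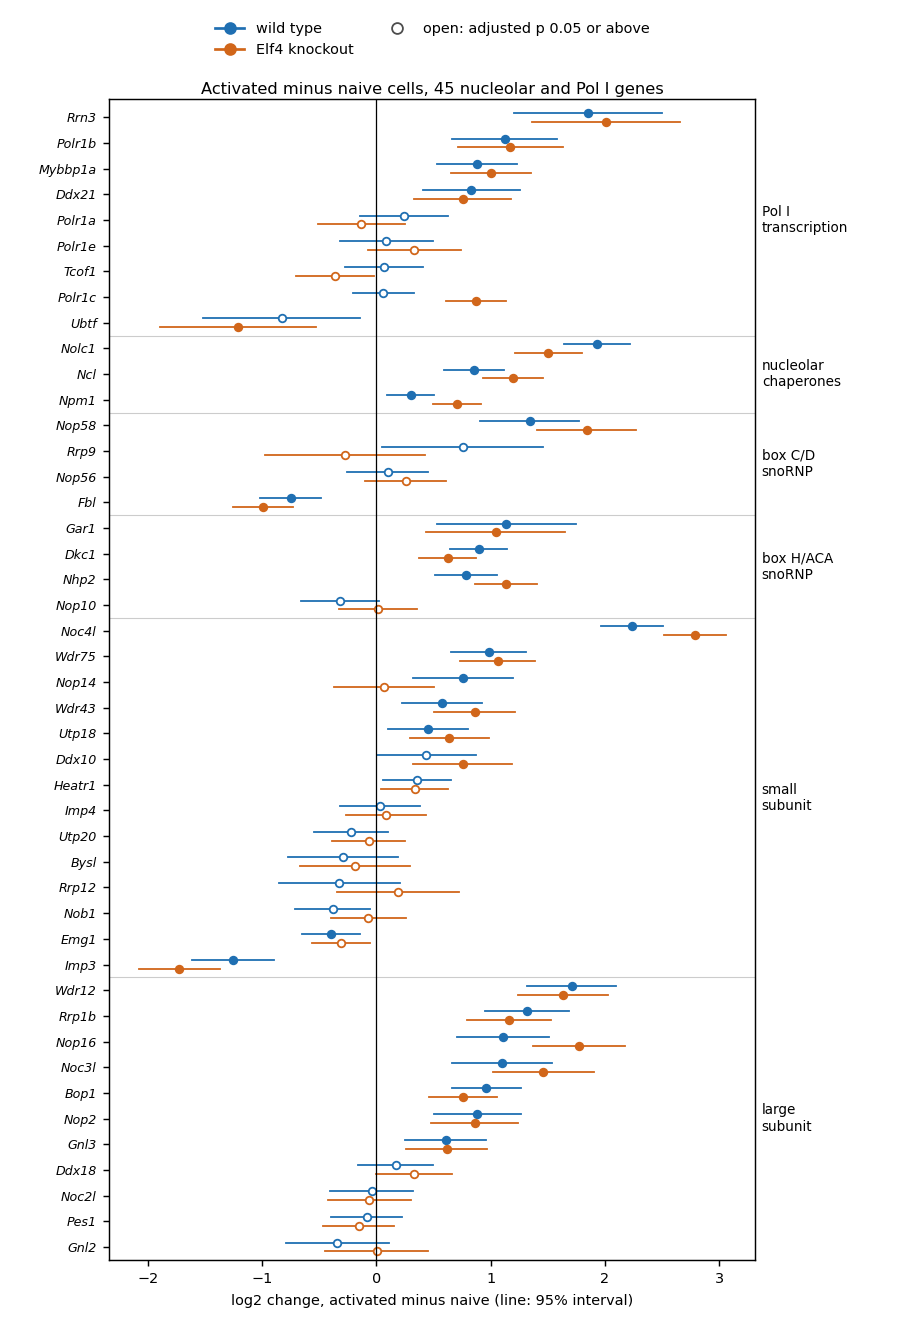
Log2 change from naive to activated cells (x axis) for the 45 genes, grouped by role, in wild-type (blue) and Elf4 knockout (orange) cells. Points are estimates from 2 arrays per group, lines are 95% intervals, and filled points passed the test (23 higher and 3 lower in wild type, 24 higher and 3 lower in knockout).

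Promoter sequences of 4 of these genes are shown because 3 of them rose in both genotypes and hold the E-box hexamer CACGTG, the letters that Myc and related factors are known to bind, while Imp3 had the largest fall of the list and holds none. They come from the RefSeq promoter table on GRCm38.p6 and run 5′ to 3′ on the gene's strand up to the base before the annotated start. The positions are chr16:13780591-13780698 on the plus strand for Rrn3, chr6:125131763-125131882 on the plus strand for Nop2, chr11:93885767-93885846 on the minus strand for Utp18 and chr9:56937374-56937499 on the plus strand for Imp3. Capitals mark CACGTG and the ETS-type letters CCGGAAG.
Rrn3: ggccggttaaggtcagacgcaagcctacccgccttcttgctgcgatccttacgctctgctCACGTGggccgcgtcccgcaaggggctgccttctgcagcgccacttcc
Nop2: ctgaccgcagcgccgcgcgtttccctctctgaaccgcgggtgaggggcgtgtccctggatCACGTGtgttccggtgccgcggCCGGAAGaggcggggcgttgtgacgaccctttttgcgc
Utp18: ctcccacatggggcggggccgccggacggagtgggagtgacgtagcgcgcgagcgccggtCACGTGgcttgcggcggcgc
Imp3: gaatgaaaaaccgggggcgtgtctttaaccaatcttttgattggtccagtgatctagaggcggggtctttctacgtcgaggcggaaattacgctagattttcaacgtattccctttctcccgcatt
The table held 40 of the 46 genes. In the 250 bases before the start, CACGTG, which reads the same on both strands, occurred in 4 of 40 genes (10%), namely Rrn3, Nop2, Utp18 and Imp4, against 1854 of 27025 genes in the whole table (6.86%). It occurred in 3 of 20 genes that rose in both genotypes and in 1 of 19 other measured genes. CCGGAAG, read on either strand, occurred in 9 of 40 genes (22.5%) against 2115 of 27025 (7.83%), in 5 of 20 that rose in both genotypes and in 4 of 19 others. No ending of either motif, on either strand, is a beginning of the other, so their matches cannot overlap. A CCGGAAG match of Utp18 lies outside the stretch shown. A match describes the letters and nothing more.

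Among the 9 genes of Pol I transcription, 4 rose in wild-type cells and none fell, and 5 rose and 1 fell in knockout cells. Rrn3, the initiation factor that brings Pol I to the ribosomal DNA promoter and whose promoter is shown above, had intensities of 359.6 and 784 in wild-type naive cells, 2046 and 1880.3 in wild-type activated cells, 529 and 655 in knockout naive cells and 2433 and 2403 in knockout activated cells. Every activated array was above every naive array in both genotypes, and the wild-type naive replicates lay far apart. Its change was 1.85 ± 0.29 (SE, adjusted p = 0.000477) in wild-type and 2.01 ± 0.29 (SE, adjusted p = 0.00024) in knockout cells. Polr1b, the second largest Pol I subunit, read 1212 and 850.0 in wild-type naive cells, 2375 and 2093 in wild-type activated cells, 1007 and 999 in knockout naive cells and 2642 and 1961 in knockout activated cells. Here too the states did not overlap in either genotype, with changes of 1.12 ± 0.21 (SE, adjusted p = 0.00139) and 1.17 ± 0.21 (SE, adjusted p = 0.000985).

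Polr1a, the largest Pol I subunit, read 829 and 739.5 in wild-type naive cells, 915 and 944 in wild-type activated cells, 1009 and 1044 in knockout naive cells and 996 and 879 in knockout activated cells. The wild-type activated arrays lay just above the naive ones and the knockout activated arrays below them, and neither change passed the test (0.24, adjusted p = 0.303, and -0.13, adjusted p = 0.587). Polr1c, a subunit that Pol I shares with RNA polymerase III, was at 6414 and 6132 in wild-type naive cells, 6669 and 6419.7 in wild-type activated cells, 5655 and 5125 in knockout naive cells and 9363 and 10378 in knockout activated cells. The knockout activated arrays stood above the other 6. The change was 0.87 ± 0.12 (SE, adjusted p = 0.000163) in knockout and 0.061 (adjusted p = 0.726) in wild-type cells, on a probe set that may match more than 1 transcript. Polr1e, another Pol I subunit, had changes of 0.087 and 0.33 and passed in neither genotype.

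Ubtf, the factor that coats active ribosomal DNA, read 1792 and 4201 in wild-type naive cells, 1394 and 1693 in wild-type activated cells, 3131 and 2736 in knockout naive cells and 1347 and 1169.8 in knockout activated cells. Activated arrays were below naive arrays in both genotypes, and the wild-type naive replicates differed by 1.22 on the log2 scale, the widest replicate gap among the members. The knockout fall was -1.21 ± 0.31 (SE, adjusted p = 0.00894), and it lost the call without knockout naive replicate 1 (adjusted p = 0.0538) or knockout activated replicate 2 (0.0648) and on the second probe set (-0.60, adjusted p = 0.330). In wild-type cells the change was -0.83 (adjusted p = 0.0548), and without wild-type naive replicate 1 it was -1.44 (adjusted p = 0.000282). Mybbp1a, a nucleolar protein that binds Myb, rose by 0.88 in wild-type and 1.0 in knockout cells (adjusted p = 0.00123 and 0.000463). On its second probe set the changes were 0.40 and 0.60 and neither was called (adjusted p = 0.279 and 0.105). The RNA helicase gene Ddx21 rose by 0.83 and 0.75 (adjusted p = 0.00542 and 0.0087); the knockout call was lost without knockout naive replicate 1 (adjusted p = 0.0687) or knockout activated replicate 1 (0.0822). Its second probe set gave -0.21 and -0.22, with no call (adjusted p = 0.351 and 0.312). Tcof1, which encodes the Pol I cofactor treacle, passed in neither genotype (0.066 and -0.36).

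The 3 measured nucleolar chaperone genes rose in both genotypes. Ncl, which encodes nucleolin, read 15199.6 and 12617 in wild-type naive cells, 26031 and 24154 in wild-type activated cells, 10899.9 and 11604 in knockout naive cells and 26697 and 24775 in knockout activated cells. Activated arrays were higher throughout, by 0.86 ± 0.12 (SE, adjusted p = 0.000196) in wild-type and 1.19 ± 0.12 (SE, adjusted p = 1.61e-05) in knockout cells. Nolc1, whose product escorts snoRNPs, read 2025 and 2119 in wild-type naive cells, 8401 and 7499 in wild-type activated cells, 2211 and 1975 in knockout naive cells and 5921 and 5988 in knockout activated cells. The naive arrays of both genotypes overlapped, and the wild-type activated arrays were the highest. Its change was 1.93 ± 0.13 (SE, adjusted p = 1.18e-06) and 1.5 ± 0.13 (SE, adjusted p = 6.29e-06). Npm1, which encodes the abundant nucleolar protein nucleophosmin, read 28357 and 26873 in wild-type naive cells, 33908 and 34034 in wild-type activated cells, 24219 and 25090.2 in knockout naive cells and 39480.4 and 40943 in knockout activated cells. The states did not overlap in either genotype, and the change was 0.30 ± 0.09 (SE, adjusted p = 0.0261) in wild-type and 0.71 ± 0.09 (SE, adjusted p = 0.000126) in knockout cells. The wild-type call of Npm1 was lost without any 1 of the 4 wild-type arrays, with adjusted p from 0.0544 to 0.126, with the replicate number as a block (adjusted p = 0.0533) and with no filter (0.0935).

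The box C/D genes divided. Nop58, a core scaffold protein, read 1281 and 959 in wild-type naive cells, 2933 and 2733 in wild-type activated cells, 710.4 and 527 in knockout naive cells and 2194 and 2275 in knockout activated cells. Activated arrays were above naive arrays, and both naive knockout arrays lay below both naive wild-type arrays. It rose by 1.34 ± 0.20 (SE, adjusted p = 0.000282) and 1.84 ± 0.20 (SE, adjusted p = 2.59e-05). Fbl, the methyltransferase fibrillarin of the same particle, read 9413 and 10755 in wild-type naive cells, 6075 and 5867 in wild-type activated cells, 8513 and 8773 in knockout naive cells and 4468 and 4211 in knockout activated cells. Every activated array was below every naive array, with changes of -0.75 ± 0.12 (SE, adjusted p = 0.000507) and -0.99 ± 0.12 (SE, adjusted p = 6.36e-05). Nop56, the partner scaffold of Nop58, read 7778 and 6893 in wild-type naive cells, 8112 and 7578 in wild-type activated cells, 6350.0 and 4718 in knockout naive cells and 5967 and 7169.5 in knockout activated cells. Naive and activated arrays overlapped in both genotypes, the knockout arrays lay below the wild-type arrays in both states, and the changes were 0.098 (adjusted p = 0.67) and 0.26 (adjusted p = 0.232); without knockout naive replicate 1 the knockout change was 0.47 (adjusted p = 0.0428). Rrp9, a protein of the U3 snoRNP, passed in neither genotype (0.75 and -0.28), and its knockout activated replicates read 570.4 and 1219.

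Of the 4 box H/ACA genes, 3 rose in both genotypes. Dkc1, the pseudouridine synthase of the particle, read 5031 and 5186 in wild-type naive cells, 9692 and 9335 in wild-type activated cells, 5024 and 5282 in knockout naive cells and 8004 and 7898 in knockout activated cells. The naive arrays of both genotypes overlapped and the activated arrays were higher, by 0.89 ± 0.11 (SE, adjusted p = 9.5e-05) and 0.62 ± 0.11 (SE, adjusted p = 0.00106). Gar1, a second core protein, read 2967 and 6532 in wild-type naive cells, 9420.1 and 10002 in wild-type activated cells, 5032 and 4357 in knockout naive cells and 9229 and 10105 in knockout activated cells. The activated arrays of both genotypes overlapped, and the wild-type naive replicates lay far apart. Gar1 has a single probe set, which may match more than 1 transcript. Its change was 1.14 ± 0.27 (SE, adjusted p = 0.00698) and 1.04 ± 0.27 (SE, adjusted p = 0.0105), and the call was lost in wild-type cells without activated replicate 2 (adjusted p = 0.0526) and in knockout cells without naive replicate 2 (0.0630) or activated replicate 2 (0.0682). Nhp2, a core RNA-binding protein, rose by 0.78 and 1.13 (adjusted p = 0.000449 and 2.78e-05). On its second probe set, the one without a cross-hybridisation suffix, the changes were 0.27 and 0.20 and neither was called (adjusted p = 0.217 and 0.373). Nop10, the smallest core protein, did not pass on its brightest probe set (-0.32 and 0.011).

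Among the 14 small subunit genes, 5 rose and 2 fell in wild-type cells, and 5 rose and 1 fell in knockout cells. Noc4l, a factor that acts with Nop14, read 1900.0 and 2048 in wild-type naive cells, 9719 and 8987 in wild-type activated cells, 1759 and 1802 in knockout naive cells and 12265 and 12499 in knockout activated cells on a probe set that may match more than 1 transcript. Activated arrays were far above naive arrays, and the change was 2.23 ± 0.12 (SE, adjusted p = 2.74e-07) and 2.79 ± 0.12 (SE, adjusted p = 6.39e-08). Wdr75, a subunit of the early complex that joins Pol I transcription to processing, read 1813 and 1738 in wild-type naive cells, 3649 and 3401 in wild-type activated cells, 1639 and 1345 in knockout naive cells and 3097 and 3139 in knockout activated cells. The states were clearly apart, with changes of 0.98 ± 0.15 (SE, adjusted p = 0.000354) and 1.06 ± 0.15 (SE, adjusted p = 0.000182). The second Wdr75 probe set gave -0.71 and -0.92, with no call (adjusted p = 0.173 and 0.0790). Imp3, a U3 snoRNP protein, read 2373 and 2522 in wild-type naive cells, 976 and 1057 in wild-type activated cells, 2215 and 2437 in knockout naive cells and 752 and 638 in knockout activated cells. It went the opposite way, with every activated array below every naive array and changes of -1.26 ± 0.16 (SE, adjusted p = 0.000116) and -1.72 ± 0.16 (SE, adjusted p = 1.04e-05). The stretch before its start shown above holds neither motif.

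Emg1, an rRNA methyltransferase, read 7356 and 7131 in wild-type naive cells, 5315 and 5690.1 in wild-type activated cells, 6956 and 7379 in knockout naive cells and 5778 and 5789 in knockout activated cells. Activated arrays were lower in both genotypes by a small margin. The change was -0.40 ± 0.11 (SE, adjusted p = 0.0182) in wild-type and -0.31 (adjusted p = 0.052) in knockout cells, and the wild-type call was lost without naive replicate 1 (adjusted p = 0.0602), activated replicate 1 (0.131) or activated replicate 2 (0.0596), and with each array centred on its median (log2 change of -0.21, adjusted p = 0.329). Wdr43, another subunit of the early complex, rose by 0.57 and 0.86 (adjusted p = 0.0147 and 0.00129), and the wild-type call was lost without naive replicate 1 (0.0964) or activated replicate 1 (0.122). Utp18, a processome protein whose promoter is shown above, rose by 0.45 and 0.64 (adjusted p = 0.0415 and 0.00721). Its wild-type call was lost without any 1 of the wild-type or knockout activated arrays (adjusted p from 0.0638 to 0.263), after quantile normalization (0.0639) and with no filter (0.0558), and its knockout call without knockout activated replicate 1 (0.0502). Nop14 rose in wild-type cells by 0.76 (adjusted p = 0.0105), a call lost without naive replicate 2 (0.0641) or activated replicate 1 (0.0786), and had a knockout change of 0.064. The helicase gene Ddx10 rose in knockout cells by 0.75 (adjusted p = 0.00959), a call lost without naive replicate 1 (0.0748), activated replicate 1 (0.0557) or activated replicate 2 (0.0537), and had a wild-type change of 0.44 (adjusted p = 0.102). Heatr1, Utp20, Imp4, Bysl, Nob1 and Rrp12 passed in neither genotype, with wild-type changes from -0.38 (Nob1) to 0.36 (Heatr1).

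Of the 11 large subunit genes, the same 7 rose in both genotypes and none fell. Wdr12 and Bop1 belong with Pes1 to the complex known as PeBoW. On the brightest probe sets Wdr12 and Bop1 rose and Pes1 passed in neither genotype, while the second probe sets of Wdr12 (0.022 and 0.27) and Bop1 (-0.59 and -0.79) did not rise (adjusted p = 0.974 and 0.662 for Wdr12, 0.135 and 0.0496 for Bop1). Wdr12 read 817 and 681 in wild-type naive cells, 2520.0 and 2427 in wild-type activated cells, 769.7 and 971 in knockout naive cells and 2570.2 and 2863 in knockout activated cells. The activated arrays were higher throughout, by 1.71 ± 0.18 (SE, adjusted p = 2.34e-05) and 1.63 ± 0.18 (SE, adjusted p = 2.89e-05). Bop1 read 1764 and 1709 in wild-type naive cells, 3478 and 3310.2 in wild-type activated cells, 1551 and 1561 in knockout naive cells and 2577 and 2705 in knockout activated cells. Its activated arrays were higher in both genotypes, and highest in wild-type cells, with changes of 0.96 ± 0.14 (SE, adjusted p = 0.000225) and 0.76 ± 0.14 (SE, adjusted p = 0.00106). Pes1 read 3106 and 2720.1 in wild-type naive cells, 2878 and 2606 in wild-type activated cells, 2723 and 2869.7 in knockout naive cells and 2537 and 2473 in knockout activated cells. The wild-type states overlapped, the knockout activated arrays lay just below the naive ones, and the changes were -0.085 (adjusted p = 0.67, 95% interval -0.39 to 0.22) and -0.16 (adjusted p = 0.404, 95% interval -0.47 to 0.15).

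Rrp1b, a nucleolar factor of the large subunit pathway, read 1745 and 1263 in wild-type naive cells, 3844 and 3618 in wild-type activated cells, 1649 and 1645 in knockout naive cells and 3644 and 3765 in knockout activated cells. The states were well apart, by 1.32 ± 0.17 (SE, adjusted p = 0.0001) and 1.16 ± 0.17 (SE, adjusted p = 0.00022). Nop16 read 918 and 726 in wild-type naive cells, 1872 and 1695 in wild-type activated cells, 616 and 599.9 in knockout naive cells and 2308 and 1933 in knockout activated cells. Activated arrays were higher, by 1.11 ± 0.18 (SE, adjusted p = 0.000626) and 1.77 ± 0.18 (SE, adjusted p = 2e-05). Its second probe set gave 0.57 and 0.55 with no call (adjusted p = 0.304 and 0.315). Noc3l read 464 and 427 in wild-type naive cells, 903 and 1046 in wild-type activated cells, 346 and 423 in knockout naive cells and 1060.4 and 1102 in knockout activated cells. The naive values were below the activated ones in both genotypes, with changes of 1.10 ± 0.20 (SE, adjusted p = 0.00119) and 1.46 ± 0.20 (SE, adjusted p = 0.000151) and a second probe set not called in wild-type cells (0.32, adjusted p = 0.347). Nop2, an rRNA methyltransferase whose promoter is shown above, rose by 0.88 and 0.86 (adjusted p = 0.002 and 0.0022). Gnl3, the nucleolar GTPase nucleostemin, rose by 0.61 and 0.61 (adjusted p = 0.0113 and 0.01); the wild-type call was lost without naive replicate 1 (0.0770) or activated replicate 1 (0.101), and the knockout call without naive replicate 2 (0.0591), activated replicate 1 (0.0507) or activated replicate 2 (0.0615). Noc2l, Ddx18 and Gnl2 passed in neither genotype on their brightest probe sets, with wild-type changes of -0.042, 0.17 and -0.34.

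**Figure D2:**
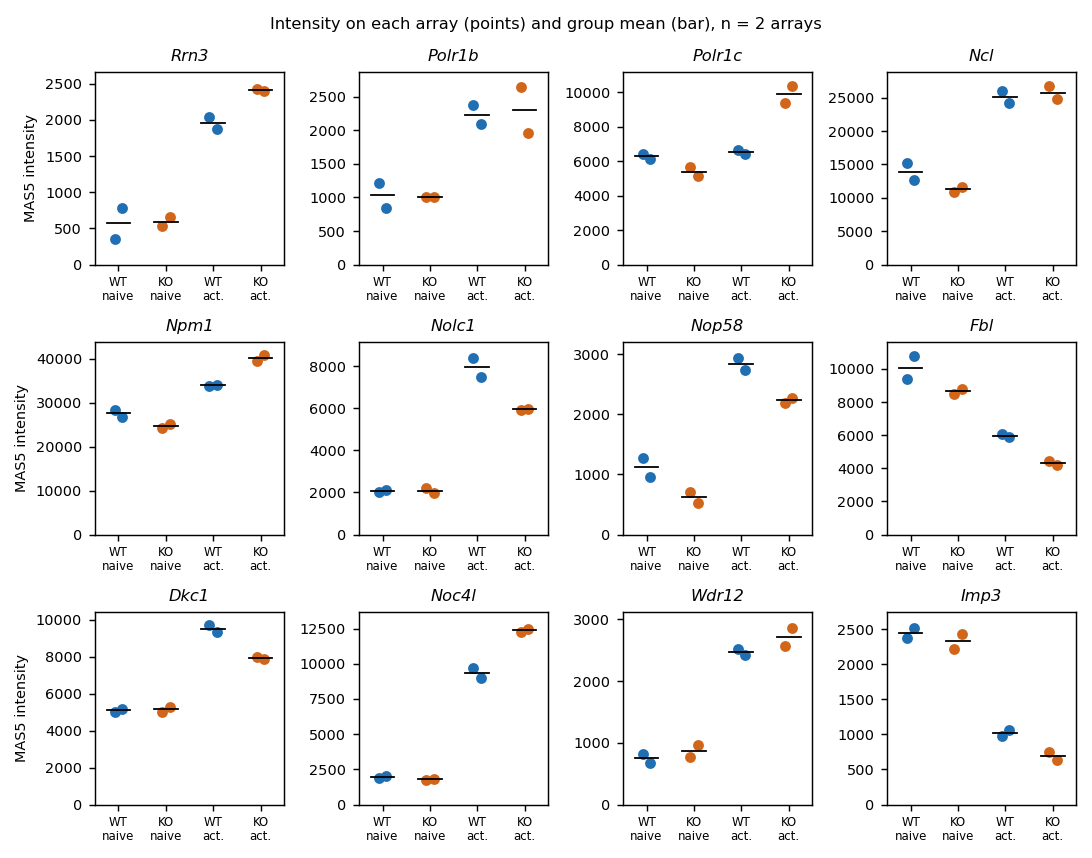
Deposited intensity on each array (points, linear y axis from 0) and the mean of 2 arrays (bar) for 12 genes in wild-type (blue) and Elf4 knockout (orange) cells, naive and activated. Fbl and Imp3 are lower on every activated array, the knockout activated arrays of Polr1c stand above the other 6, and the remaining 9 genes are higher on every activated array.

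Replicates of the members agreed to a median of 0.18 (wild-type naive), 0.11 (wild-type activated), 0.16 (knockout naive) and 0.10 (knockout activated) on the log2 scale. Gaps over 0.5 were found for 6 genes in wild-type naive cells (Gar1, Mybbp1a, Polr1b, Rrn3, Rrp9 and Ubtf), for none in wild-type activated cells, for Gnl2 in knockout naive cells and for Rrp12 and Rrp9 in knockout activated cells.

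Another 110 ribosome assembly genes, outside the list, were tested for context. In wild-type cells 45 rose and 21 fell (median 0.29), and in knockout cells 46 rose and 24 fell (median 0.32), which lie between the members' medians and those of all genes. Naf1, an assembly factor of box H/ACA snoRNPs, had the largest rise in both, 2.35 ± 0.18 (SE, adjusted p = 3.1e-06) and 2.52 ± 0.18 (SE, adjusted p = 1.73e-06). Dis3, a catalytic subunit of the RNA exosome, was among the 3 largest rises in both genotypes (2.06 and 2.24), with Utp6 in wild-type (2.09) and Nol10 in knockout cells (2.26). Nsa2, a large subunit factor, had the largest fall in both, -2.03 ± 0.25 (SE, adjusted p = 7.54e-05) and -1.73 ± 0.25 (SE, adjusted p = 0.000211). The other large falls were those of Ddx54 (-1.61) and Exosc5 (-1.45) in wild-type cells and of Taf1c (-1.70), a subunit of the Pol I selectivity factor, and Exosc5 (-1.62) in knockout cells. On the second brightest probe set the Nsa2 falls were not called (-0.44, adjusted p = 0.161, and -0.27, adjusted p = 0.384).

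Ribosomal protein genes were counted in the same way. The cytosolic list was made by symbol (Rpl or Rps and a digit, with Rplp genes and Rpsa), and was not checked gene by gene. It therefore also holds Rps19bp1 and genes such as Rps27l, which had the list's highest change in wild-type cells (2.43). Of 47 cytosolic ribosomal protein genes tested, 3 rose and 21 fell in wild-type cells (median -0.29), and 18 rose and 12 fell in knockout cells (median 0.27). Of 76 genes for proteins of the mitochondrial ribosome, which is built apart from the nucleolus, 22 rose and 13 fell, and 26 rose and 17 fell (medians 0.12 and 0.14). These are counts beside those of the members, and no test compared the lists.

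**Figure D3:**
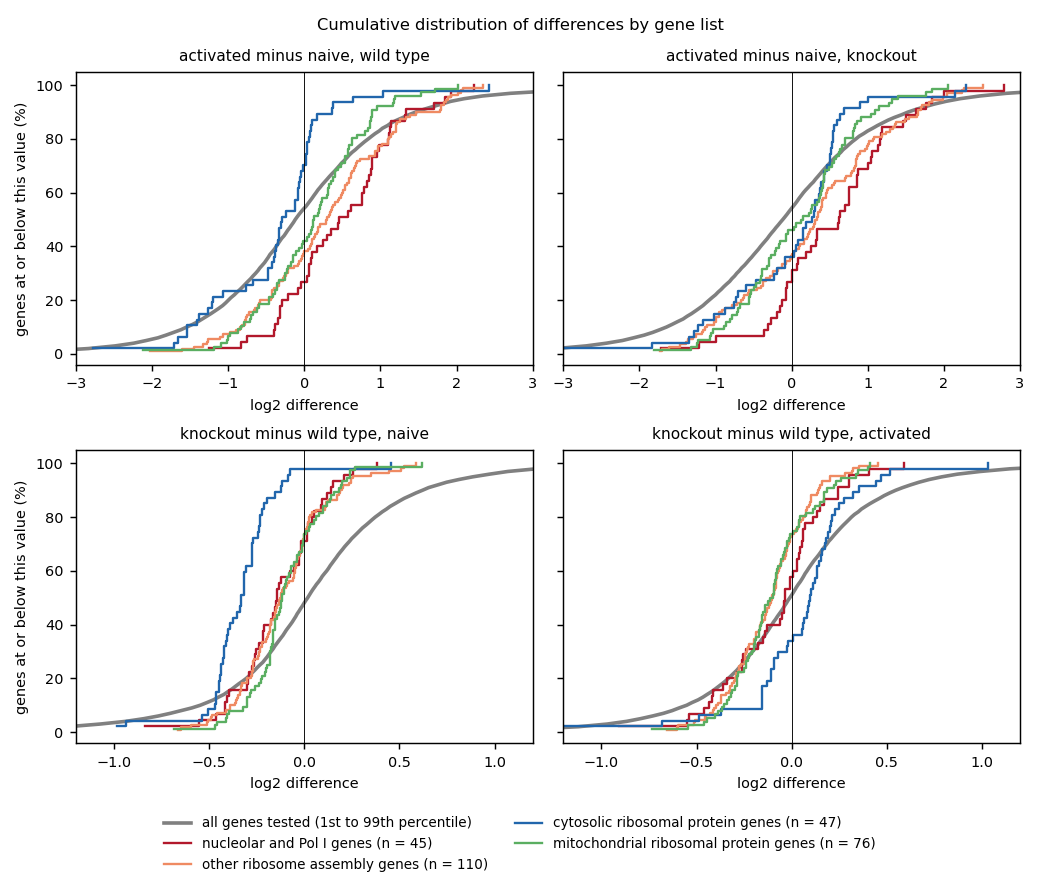
Cumulative percent of genes (y axis) at or below each log2 difference (x axis) in 4 comparisons, for the 45 members (dark red), 110 other ribosome assembly genes, 47 cytosolic and 76 mitochondrial ribosomal protein genes, and all 12797 genes (grey, from the first to the 99th percentile). In both activation panels the members' curve lies to the right of the grey curve over most of its range, with medians of 0.45 and 0.62 against -0.12 and -0.12.

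Of the members, 31 had more than 1 tested probe set, and for 12 of these the probe sets differed in sign in each activation comparison. In wild-type cells no gene was called in both directions, 6 were called higher on every tested probe set, and Fbl was lower on both of its own (-0.75 and -0.47). In knockout cells Bop1 was called in both directions, 0.76 on the brighter and -0.79 (adjusted p = 0.0496) on a dim second probe set. All 4 tested Noc4l probe sets were called higher in wild-type cells, and 3 of the 4 in knockout cells. The 2 brighter Noc4l probe sets carry the suffix of sets that may cross-hybridise. On the unsuffixed Noc4l probe set the intensities were 1085 and 1088 in wild-type naive cells, 1865 and 1688 in wild-type activated cells, 1257 and 1111 in knockout naive cells and 1521 and 1445 in knockout activated cells, a change of 0.70 in wild-type (adjusted p = 0.00476) and 0.32 in knockout cells (adjusted p = 0.128).

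Other genes changed call with the probe set. The second Polr1c probe set fell in wild-type cells (-0.62, adjusted p = 0.0169) and had a knockout change of -0.034, against the knockout rise on the brighter one. Nop10, not called on its brightest set, fell in both genotypes on the other (-0.98 and -0.86, adjusted p = 0.00179 and 0.00356). A second Ddx18 probe set rose in both (1.0 and 0.99), while the lowest Ddx18 changes were -0.72 and -0.87, with no call. A second Gnl2 probe set rose in wild-type cells (0.84, adjusted p = 0.00577), and a second Nop56 probe set in knockout cells (0.97, adjusted p = 0.023). The dimmest Heatr1 set rose in wild-type cells (1.84, adjusted p = 0.0486) and the dimmest Imp4 set fell in both (-2.31 and -1.95). Among genes called on the brightest set, Wdr75, Ddx21, Wdr12, Nhp2, Nop16 and Mybbp1a were called on the second set in neither genotype, Noc3l and Bop1 were not called on it in wild-type cells, and Ubtf was not in knockout cells, with the values given above. For Ncl, 2 of the 4 further probe sets rose in both genotypes (1.77 and 1.48 in wild type), and for Dkc1 both did, by 2.29 and 0.83 in wild-type cells. The 13 members with a single probe set, Rrn3, Polr1b, Nop58, Gar1 and Imp3 among them, have no such check.

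**Figure D4:**
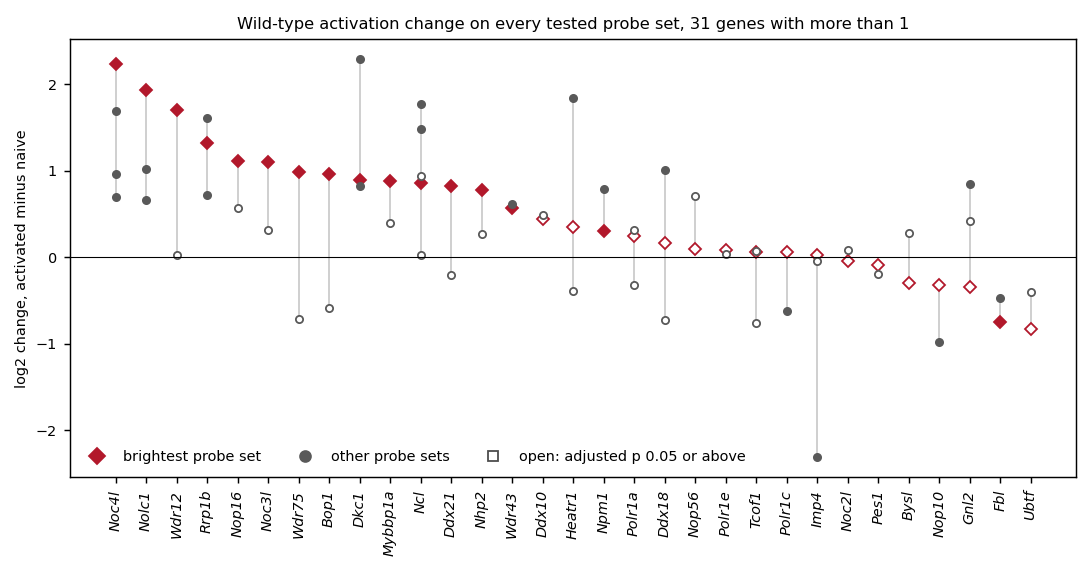
Log2 change from naive to activated wild-type cells (y axis) on every tested probe set of the 31 genes with more than 1, ordered by the brightest probe set (red diamond), with the other probe sets as grey points. Filled symbols passed the test, and the vertical lines that cross 0 mark the 12 genes whose probe sets differ in sign.

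In naive cells, no member passed the test between knockout and wild type in limma, when 0.836% of all genes did. An unadjusted p under 0.05 was found for 9 of the 45, and for 1791 of all 12797 genes. The members' differences had a median of -0.15, and 32 of 45 were negative, against a median of 0.017 over all genes, of which 6168 of 12797 were negative. Among the other assembly genes 81 of 110 were negative (median -0.13), and among the mitochondrial ribosomal protein genes 56 of 76 (median -0.12). With each array centred on its median the members' median was -0.042 and that of all genes 0.12. Knockout arrays lay outside the wild-type arrays for 18 members, Polr1a above and 17 below, against 20.3% higher and 19.4% lower among all genes (39.7% in all). The smallest p belonged to Nop58, whose naive values of 710.4 and 527 in knockout and 1281 and 959 in wild-type cells gave a difference of -0.84 ± 0.20 (SE, adjusted p = 0.114). Nob1, the endonuclease that makes the last cut of the small subunit RNA, read 1635 and 1751 against 2325 and 2351 (-0.46, adjusted p = 0.24). Nop56 differed by -0.42 (adjusted p = 0.327) and Ncl by -0.30 (adjusted p = 0.341).

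The naive knockout arrays also held more granulocyte transcript. The 8 granulocyte markers summed to 405 and 688 on the wild-type naive arrays, 4647 and 19478 on the knockout naive arrays and 192 to 385 on the 4 activated arrays, and 4 of the 8 were called higher in naive knockout cells. The 10 B cell markers summed to 32988 and 49582 on the knockout and 31735 and 28508 on the wild-type naive arrays, with 1 of 10 called higher. That one was Igha, at 9201 and 16831 on the knockout and 330 and 149 on the wild-type arrays. Of the 10, 7 had positive and 3 negative differences, among the latter Ighm, the brightest (-0.40, adjusted p = 0.225). The 9 macrophage markers summed to 3680 and 6327 on the knockout and 2250 and 2646 on the wild-type naive arrays, and of 6 tested all had higher means in knockout cells (median 0.95), 0 were called and 3 had an unadjusted p under 0.05. The 5 NK cell markers summed to 16517 and 15867 against 15260 and 15607, sums made up mostly of Nkg7 (15522 and 14780 against 14912 and 15139). Of 4 tested, Klra8 was called higher, at 664 and 588 against 62.1 and 126 (2.60, adjusted p = 0.0493). The CD8+ T cell markers summed to 76310 and 70031 on the knockout and 85504 and 83540 on the wild-type naive arrays, and 0 of 6 differed by the test. Without knockout naive replicate 2, the array with the highest granulocyte sum, the members' median was -0.11 and 30 of 45 differences were negative. The part of these cells in the members' differences was not tested.

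In activated cells, no member passed the same test between knockout and wild type, when 0.289% of all genes did. Of the members 11 had an unadjusted p under 0.05, as did 1612 of all 12797 genes. The median difference was -0.037, with 26 of 45 negative, against a median of -0.0094 over all genes, of which 6518 of 12797 were negative. Among the other assembly genes 80 of 110 were negative (median -0.10), and among the mitochondrial ribosomal protein genes 56 of 76 (median -0.11). Of the cytosolic ribosomal protein genes, 16 of 47 were negative (median 0.098). Knockout arrays lay outside the wild-type arrays for 29 members, 11 above and 18 below, against 25.2% and 25.7% of all genes (50.9% in all). The smallest p belonged to Polr1c, with 9363 and 10378 in knockout and 6669 and 6419.7 in wild-type cells, a difference of 0.59 ± 0.12 (SE, adjusted p = 0.0888). Fbl, at 4468 and 4211 against 6075 and 5867, differed by -0.46 ± 0.12 (SE, adjusted p = 0.176). Tcof1, at 1443 and 1473 against 2143 and 2141, differed by -0.55 ± 0.16 (SE, adjusted p = 0.215), and Imp3 by -0.54 ± 0.16 (SE, adjusted p = 0.248). In a fit to the 4 activated arrays alone, Polr1c, Fbl and Tcof1 were called (adjusted p = 0.0159, 0.0377 and 0.0337), where 3.75% of all genes were. With array weights, Polr1c and Fbl were called (adjusted p = 0.0213 and 0.0490), where 2.19% of all genes were.

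The change on activation was also compared between the genotypes. No member passed, when 0.086% of all genes did. Of the members 7 had an unadjusted p under 0.05, as did 1479 of all 12797 genes. The smallest p belonged to Polr1c, with a knockout change larger by 0.81 ± 0.17 (SE, adjusted p = 0.132). It was followed by Noc4l (0.55, adjusted p = 0.311), Npm1 (0.41, adjusted p = 0.331) and Nop16 (0.66, adjusted p = 0.433). The Noc4l difference was -0.38 on its unsuffixed probe set, that of Npm1 was -0.019 after quantile normalization and -0.059 on its second probe set, and that of Nop16 was -0.021 on its second probe set. In naive cells, the 95% intervals of the genotype difference lay within 1 log2 unit of 0 for 43 of 45 members. In activated cells they did for 44 of 45, with a median distance of 0.35 from estimate to limit in both states. For the difference of the activation change they did for 37 of 45, with a median distance of 0.50. Its estimate furthest from 0 was that of Rrp9 (-1.03), with replicate gaps over 0.5 in wild-type naive and knockout activated cells. The mitochondrial and the other assembly genes also had 0 calls in all 3 genotype comparisons. Of the cytosolic ribosomal protein genes, 46 of 47 were lower in naive knockout cells (median -0.33), 1 of them by the test. Among these 47, the unadjusted p was under 0.05 for 34 in naive and 10 in activated cells. For the difference of the activation change it was for 27, and 41 of 47 estimates were positive (median 0.45).

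**Figure D5:**
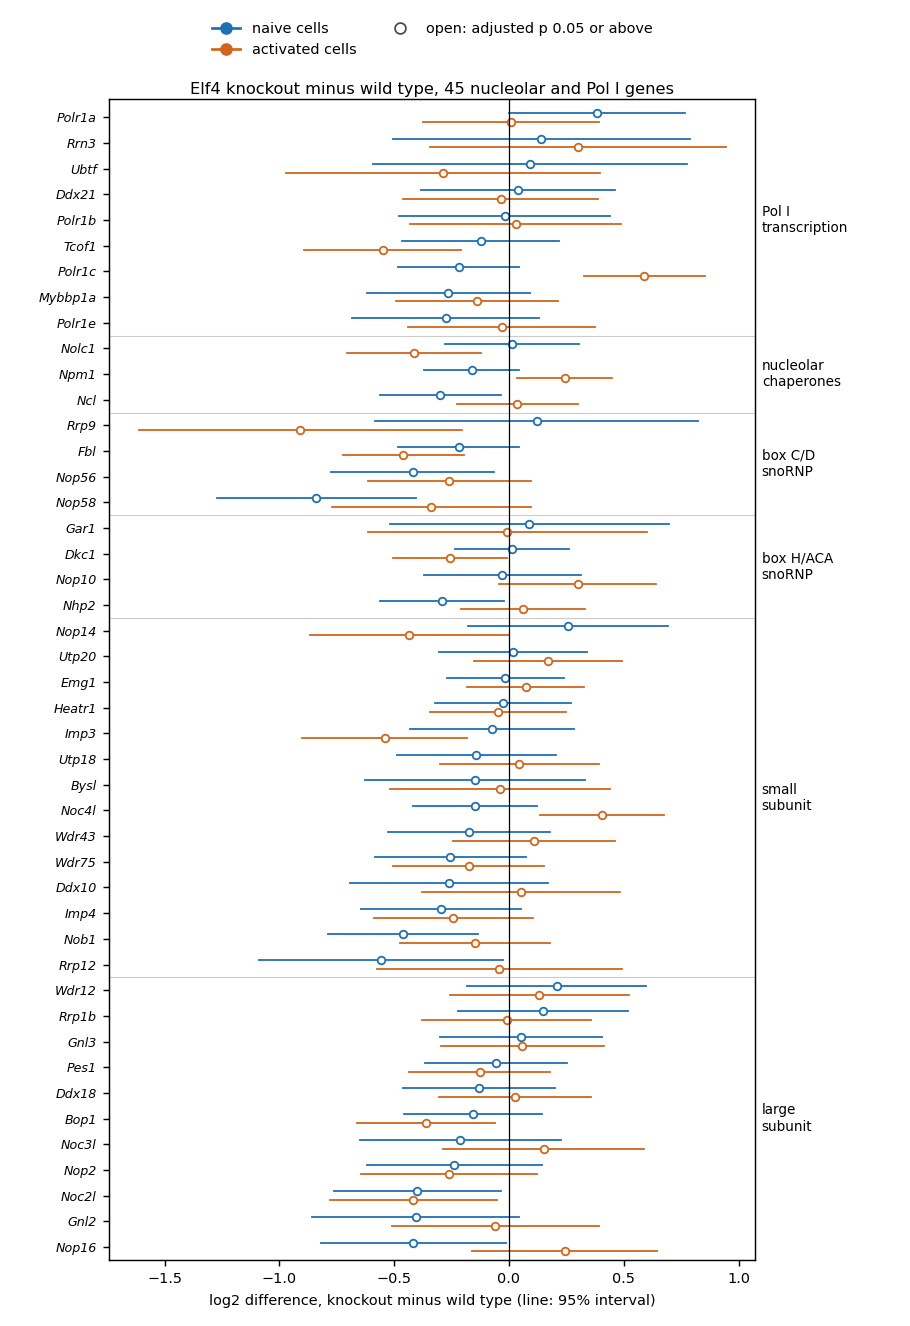
Log2 difference, Elf4 knockout minus wild type (x axis), for the 45 genes in naive (blue) and activated (orange) cells, with 95% intervals as lines and 2 arrays per group. Every point is open because no member passed the test, and Nop58 in naive cells (-0.84) and Polr1c in activated cells (0.59) had the smallest p.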

How the data were processed

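Affymetrix arrays of 8 RNA samples were used as deposited. The authors' values are linear intensities, 1 for each probe set on each array. MAS5 made them per the submitters' processing notes (version not given in the sources used here). The 2% trimmed mean was 500 for each of the 8 deposited columns, so the arrays had been scaled to a common level, and 0 values were missing. MAS5 scaling fixes the mean of each array, so a change in total RNA per cell is not visible.

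Of 45101 probe sets, 34958 had 1 gene symbol in the platform annotation, 932 had several and 9211 none, and 64 control probe sets were left out. A GRCm38.p6 gene table, joined on the Entrez identifier, supplied current symbols (34754 matched). Values were taken as log2(intensity + 16), so changes of dim genes are understated. The test took probe sets that reached the median of an array on 2 or more arrays, 27389 in all, covering 12797 genes by their brightest probe set. In R 4.3.3, limma 3.58.1 (lmFit, then eBayes with a trend) fitted 4 group means to 8 arrays, with 4 residual and 6.68 prior degrees of freedom. Tests were two-sided and adjusted by Benjamini-Hochberg over all tested probe sets within a comparison, with a threshold of 0.05. Groups and replicate numbers came from the sample titles.

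The members, the lists and the alternatives were chosen with earlier results of these data known. Array values are given for members past the threshold in a genotype comparison (there were none), the 12 largest rises and every fall in wild-type activation, and Ncl, Npm1, Fbl, Nop56, Dkc1, Pes1, Bop1, Polr1a, Polr1b, Rrn3 and Ubtf. The 4 smallest p in each genotype comparison and the 3 largest changes each way among other assembly genes are also named.

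Same-numbered replicates did not deviate together (correlations from -0.17 to 0.07), so the numbers were not taken as pairs. On simulated data with the spread of these arrays (27389 probe sets, wild-type activation), the fit recovered 17 of 100 probe sets changed by 1 log2 unit and 48 of 100 changed by 2, with 3 false among 68 calls. No other probe set was changed in the simulation, while 45.4% of genes were called in the wild-type activation data. Recovery in the simulation therefore does not give the power of that comparison. The simulation was judged on its estimates (means of 0.93 and 1.95) and false calls. An earlier requirement that it recover a set number of changed probe sets was dropped after it was missed.

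Alternatives were 2 other offsets, quantile normalization, centring on the median, 2 other filters, 2 other variance models, a fit to 4 arrays, array weights, the replicate number as a block, the Actb ratio as a covariate, the second brightest probe set, removal of probe sets ending in _x_at or _s_at, an added limit of 1 on the absolute log2 change, and omission of each array in turn. A crossed replicate block was added after seeing the data.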

Additional observations from a re-analysis of the deposited data

How the results depend on the processing

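Of 65 called changes of named genes on activation, 54 or more were kept under each setting other than the Actb covariate and the second brightest probe set. The Actb covariate, which separates naive from activated arrays completely, kept 2 (Noc4l and Naf1 in wild-type cells), and the second brightest probe set kept 46. Genes with a single tested probe set, such as Rrn3, Polr1b and Imp3, stayed on it there, so their calls could not be lost. The medians on second probe sets include such genes too. With the replicate block 64 were kept, Npm1 in wild-type cells being lost (0.30, adjusted p = 0.0533), and the counts of members called in each comparison stayed within 1.5 times. The crossed block, added after seeing the data, kept all 65.

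Members called on activation went from 26 to 1 in wild-type and from 27 to 0 in knockout cells with the Actb covariate, and to 11 and 16 with an added log2 change of at least 1. With arrays left out in turn they numbered 20 to 26 and 23 to 28. The genotype difference in activated cells gave 3 calls from 4 arrays alone and 2 with array weights, and 0 with any array left out.

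The wild-type activation median of 0.45 became 0.64 with centring, 0.26 with the Actb covariate and 0.32 on second probe sets, and ranged from 0.39 to 0.57 with arrays left out. The knockout median of 0.62 became 0.49 with quantile normalization, 0.75 with centring, 0.44 with the Actb covariate, 0.27 on second probe sets and 0.33 without suffixed probe sets, and ranged from 0.52 to 0.63. The naive genotype median of -0.15 became -0.042 with centring and -0.22 on second probe sets (-0.16 to -0.11 with arrays left out). The activated genotype median of -0.037 became -0.13 with the Actb covariate and -0.13 on second probe sets (-0.081 to -0.012). The median difference between genotypes of the activation change, 0.088, became 0.0093 with the Actb covariate (0.013 to 0.14).

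Signs turned as follows. With the Actb covariate they were, in wild-type cells, Gar1 -0.063, Nop56 -0.34, Pes1 0.14 and Wdr43 -0.0035, and in knockout cells Gar1 -0.89, Nop56 -0.46, Pes1 0.21, Polr1a 0.68, Gnl3 -0.091, Wdr43 -0.072 and Exosc5 0.63. On second probe sets they were Wdr75 -0.71, Bop1 -0.59, Polr1a -0.32 and Ddx21 -0.21 in wild-type cells, Wdr75 -0.92, Bop1 -0.79, Polr1a 0.92, Polr1c -0.034 and Ddx21 -0.22 in knockout cells, and Npm1 -0.059 and Nop16 -0.021 for the difference between genotypes. Without suffixed probe sets they were Polr1c -0.034 in knockout cells and Noc4l -0.38 for the difference between genotypes. Quantile normalization turned Polr1a in knockout cells (0.013) and the Npm1 difference (-0.019). Pes1 in wild-type cells turned with centring (0.10), and with arrays left out it ranged from -0.18 to 0.0098. The cause was not tested for any of these. Precision is limited by having 2 arrays in a group.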
